A study of Mus musculus with 6 samples.

Results

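The genes described here are 8 of the 54838 in the count tables, chosen by symbol. They are the stefin A genes Stfa1, Stfa2, Stfa2l1, Stfa3, BC100530, Gm5483 and Csta1 of mouse chromosome 16, and Cstb on chromosome 10. RNA was sequenced from neutrophils that flow cytometry had sorted out of corneas infected for 24 h with PAO1, a standard strain of the bacterium Pseudomonas aeruginosa. The 2 groups were WT mice and Il1a-/- mice, in which the gene for the cytokine IL-1 alpha is disrupted; each gave 3 libraries, and every cornea in both groups was infected. The labels name no strain, age or animal, so p-values measure only the spread between these libraries, which may in part be technical. The comparison asks how these inhibitor genes differ between neutrophils with and without Il1a.

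Stefins are small inhibitors that act inside cells. A stefin wedges into the active site of papain-like cysteine proteases such as cathepsins B, H, L and S and blocks it reversibly. Stefin A, also called cystatin A, is typical of epidermis and neutrophils, and in the mouse its gene has been copied several times side by side; stefin B, the product of Cstb, is made in most cell types and its loss in humans causes a progressive myoclonus epilepsy.

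The libraries held 22855676 to 33626008 gene counts, of which the 8 genes took 0.12% to 0.15%. Il1a counts lay between 136694 and 272865 in wild type, and in the knockout between 92 and 174, so every library matched its labelled genotype. The neutrophil marker S100a9 had a mean of 14129 CPM (counts per 1000000 of the library size, which was scaled by TMM) in wild type against 13296 with Il1a lost, and Csf3r, the G-CSF receptor, had 2315 and 2246. Knockout replicate 2 lay apart from the other 5 libraries on the first principal component (67.3 against -32.9 to 2.10, with 32.1% of the variance). The log2 ratio of the summed level of the chromosome 16 genes, knockout over wild type, was -0.020 with it and -0.042 without it.

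Stefin A transcripts were abundant in these neutrophils, and a few copies supplied most of them. The 7 chromosome 16 genes lie within 335.4 kb (GRCm38, chromosome 16, 36119946 to 36455392), 3 on the plus strand and 4 on the minus strand. Their summed level was 793, 988 and 1073 CPM in wild type replicates 1 to 3, and 798, 953 and 1064 CPM in knockout replicates 1 to 3; values below keep that order. The groups overlapped almost entirely, with means of 951 ± 144 and 938 ± 134 CPM (SD, n = 3 each). The sign of the log2 ratio was not stable: it ran from -0.15 without wild type replicate 1 to 0.075 without knockout replicate 1, and was 0.041 when scaled by library size alone. Gm5483, which RefSeq names Cstdc4, gave 70.1% ± 0.8 of these counts in wild type and 71.2% ± 1.7 in the knockout. Stfa2l1 gave 23.1% ± 0.87 and 21.6% ± 0.87. The other 5 genes together shared the small remainder, from Stfa1 at 3.52% in wild type down to Csta1 at 0.03%.

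**Figure D1:**
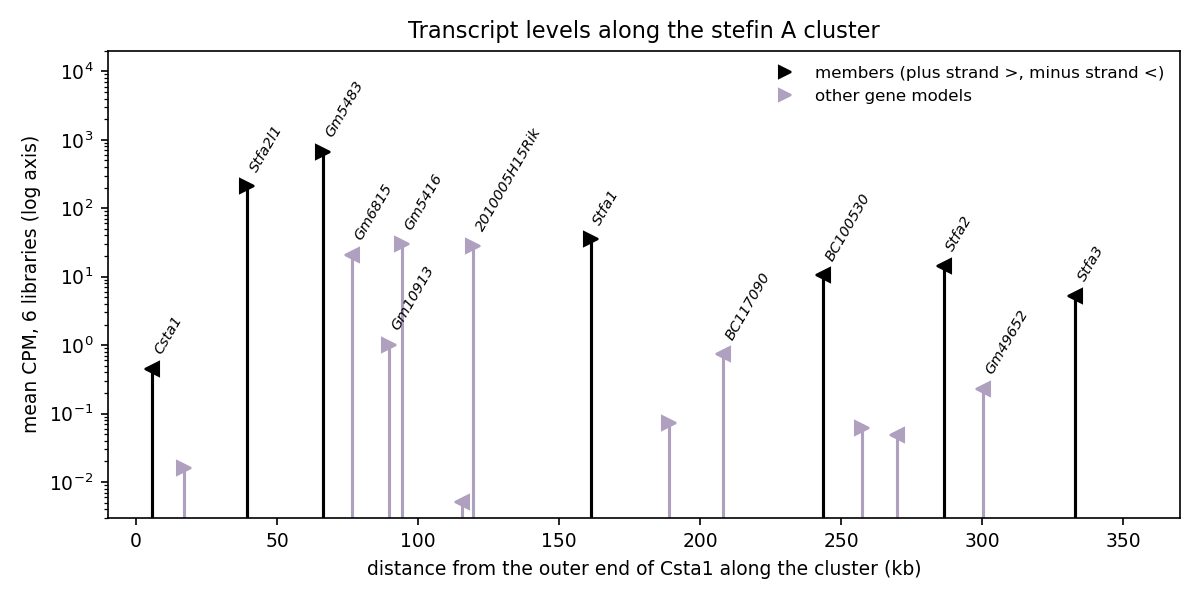
Mean CPM over 6 libraries (log axis) against distance in kb from the outer end of Csta1, for the gene models of the stefin A cluster with any counts (the 13 small nuclear RNA models are left out). Arrowheads point right for the plus strand and left for the minus strand; the 7 chromosome 16 members are black, and Gm5483 and Stfa2l1 stand above every other model.

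The cluster also holds 13 small nuclear RNA models, none with more than 10 counts in a library, and 12 other models. Of these 12, 3 are annotated as protein coding, 8 are pseudogenes and 1 is an antisense RNA. The coding Gm5416 (RefSeq Csta3) was at 29.4 ± 7.84 CPM in wild type and 29.9 ± 4.49 in the knockout, and 2010005H15Rik (RefSeq Csta2) was at 29.9 ± 8.70 and 26.3 ± 3.75. BC117090, the last coding model, reached at most 1.17 CPM in a library. The model Gm10913 was at 0.75 ± 0.43 and 1.26 ± 0.52 CPM, the models Gm10092, Gm10813, Gm4758, Gm15845, Gm7260 and Gm49652 had at most 10 counts in a library, and 1 model had none. The pseudogene Gm6815 had 13.9, 16.5 and 21.3 CPM in wild type against 18.4, 33.3 and 22.1 in the knockout. Its log2 fold change, 0.51 (SE 0.24, edgeR adjusted p = 0.84), was 0.22 without knockout replicate 2, the library with the highest value.

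The copies are alike enough that short reads can fit more than 1 of them. The coding sequences of Stfa2 and Stfa2l1 were 96.5% identical, those of Gm5483 and 2010005H15Rik 96.9%, and those of BC100530 and BC117090 95.2%. Stfa3 stood further off, at 81.7% to its nearest relative Stfa2l1, and Csta1 at 84.4% to 2010005H15Rik. Stfa1 and BC100530 were alike at 74.4% of 387 alignment columns, with gaps counted as differences. Their coding sequences are 387 and 294 bases long in the models used. As 288 bases were identical, most of the differing columns were gaps. Cstb was at most 60.3% identical to any of them. In an alignment of the 7 chromosome 16 coding sequences, 180 of 405 columns (44.4%) held the same base in all. Columns with a gap in any sequence were counted as not the same. The same 60-base stretch of that alignment is printed for each, in the coding direction, to show how the copies pair up, with capitals marking the 32 positions that are not the same in all 7. It begins at coding base 280 in Stfa1, 205 in Stfa2, Stfa2l1 and Stfa3, and 187 in the others.
Stfa1: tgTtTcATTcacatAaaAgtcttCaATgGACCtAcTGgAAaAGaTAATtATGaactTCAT
BC100530: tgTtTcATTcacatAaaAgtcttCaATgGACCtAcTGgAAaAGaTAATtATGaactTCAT
Stfa2: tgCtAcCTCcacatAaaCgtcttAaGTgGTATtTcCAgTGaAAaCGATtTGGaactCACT
Stfa2l1: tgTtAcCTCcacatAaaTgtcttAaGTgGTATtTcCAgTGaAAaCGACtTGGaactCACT
Stfa3: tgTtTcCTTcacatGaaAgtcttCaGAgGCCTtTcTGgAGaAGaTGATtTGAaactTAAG
Gm5483: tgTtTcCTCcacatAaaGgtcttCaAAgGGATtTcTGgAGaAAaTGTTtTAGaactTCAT
Csta1: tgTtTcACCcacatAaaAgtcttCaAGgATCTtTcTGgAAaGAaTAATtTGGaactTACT

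In this stretch Stfa1 and BC100530 were identical, Stfa2 and Stfa2l1 differed at 3 bases, and all other pairs differed at 12 to 23. Over whole coding sequences, the share of 50-base windows found in no other annotated transcript was 27.8% for BC100530, 60.8% for Gm5483, 71.5% for Stfa2l1, 74.3% for Stfa1, 75.7% for Stfa2 and 95.1% for Csta1, and 100% for Stfa3 and Cstb. With 100-base windows the shares were 65.1% for BC100530, 82.1% for Gm5483 and 97.2% for Stfa1, and 100% for the rest. Reads that map to several places are left out of gene counts in the layout of STAR, which these tables follow, so levels of the copies with few windows of their own may be too low. The read length is not given in the sources used here, and how far this lowered each count was not tested.

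Gm5483 (ENSMUSG00000079597, chromosome 16, 36184212 to 36188111, plus strand) had the most counts of the 8 genes and was the 242nd of all genes by mean CPM, which is not corrected for length. It had 555, 684 and 761 CPM in wild type, and 552, 686 and 769 CPM in knockout neutrophils. The 3 values of each group ran over nearly the same range, with means of 667 ± 104 and 669 ± 109 CPM. The log2 fold change, knockout minus wild type throughout, was 0.0051 (SE 0.15, 95% interval -0.34 to 0.35, edgeR adjusted p = 0.998), and its sign changed with the scaling and with several libraries left out.

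Stfa2l1 (ENSMUSG00000059657, chromosome 16, 36156811 to 36161953, plus strand) is a stefin A copy near-identical to Stfa2. It had 189, 232 and 238 CPM in wild type against 180, 199 and 226 in the knockout. The groups overlapped, with knockout replicate 1 the lowest library of all, and the log2 fold change was -0.12 (SE 0.14, 95% interval -0.42 to 0.18, adjusted p = 0.96 by edgeR). The ratio of Gm5483 to Stfa2l1 was 2.94, 2.95 and 3.20 in wild type against 3.07, 3.44 and 3.40 in the knockout.

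Cstb (ENSMUSG00000005054, chromosome 10, 78425669 to 78427622, plus strand), the gene for stefin B, was the steadiest of the 8, with a coefficient of variation over the 6 libraries of 7.40%. It had 364, 410 and 363 CPM in wild type against 403, 421 and 434 in the knockout. Wild type replicate 2 lay above knockout replicate 1, so the groups overlapped. The log2 fold change was 0.15 (SE 0.11, 95% interval -0.09 to 0.38, edgeR adjusted p = 0.94). The upper end of that interval, which is not adjusted for the number of genes tested, is 1.30-fold. The chromosome 16 sum was 2.51 ± 0.40 times the level of Cstb in wild type and 2.23 ± 0.24 times in the knockout. Both ratios are of CPM, which is not corrected for length.

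Stfa1 (ENSMUSG00000071562, chromosome 16, 36276951 to 36285373, plus strand) had 27.1, 38.2 and 35.1 CPM in wild type against 35.4, 38.6 and 37.7 in the knockout. Wild type replicate 1 was the low library, and the remaining 5 lay close together. Its log2 fold change was 0.15 (SE 0.16, edgeR adjusted p = 0.95), and 0.0089 without that library.

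Stfa2 (ENSMUSG00000022902, chromosome 16, 36403992 to 36408457, minus strand) had 11.3, 14.55 and 17.98 CPM in wild type against 13.9, 12.9 and 16.03 in the knockout. The knockout values fell inside the wild type range, with a log2 fold change of -0.033 (SE 0.20, edgeR adjusted p = 0.989). Its wild type mean of 14.6 ± 3.36 CPM stood against 219 ± 26.7 CPM for Stfa2l1, a copy of nearly the same coding sequence.

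Stfa3 (ENSMUSG00000054905, chromosome 16, 36450537 to 36455392, minus strand) carries the largest estimated difference of the 7 tested genes. It had 4.04, 5.83 and 8.27 CPM in wild type against 4.59, 3.79 and 5.11 in the knockout. The wild type mean rests largely on replicate 3, and the groups overlapped. The log2 fold change was -0.43 (SE 0.30, 95% interval -1.09 to 0.23, edgeR adjusted p = 0.94), and -0.14 without wild type replicate 3.

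BC100530 (ENSMUSG00000071561, RefSeq Cstdc5, chromosome 16, 36359382 to 36367748, minus strand) had 6.40, 12.2 and 13.2 CPM in wild type against 11.2, 10.5 and 9.43 in the knockout. Wild type replicate 1 was the low library, the knockout values fell inside the wild type range, and the log2 fold change was -0.026 (SE 0.26, edgeR adjusted p = 0.99). The tables also count reads by strand. Over the 6 libraries BC100530 had 1874 counts in the unstranded column but 3576 in the sum of the strand columns, so the former was 52.4% of the latter, a lower share than in all but 5.51% of tested genes. For the other members the share was 89.2% (Csta1) to 100%. The antisense model Gm15845 overlaps BC100530, and the unstranded column leaves out reads in overlapping models; it held at most 4 Gm15845 counts in a library. With the strand sum, BC100530 gave 2.10% of the cluster's counts in place of 1.11%, and since the library kit does not mark strand, reads of the 2 models cannot be told apart.

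Csta1 (ENSMUSG00000034362, chromosome 16, 36119946 to 36131241, minus strand), the gene named for cystatin A itself, was nearly silent. It had 3, 22 and 1 counts in wild type against 8, 42 and 7 in the knockout, too few to enter the test. Replicate 2 of each genotype held most of them. The ratio of the summed counts was 2.24 (95% exact counting interval 1.38 to 3.70), which covers counting error only and not the spread between libraries. When no low-count filter was used, the log2 fold change was 1.09 (edgeR adjusted p = 0.80).

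The 2 libraries with the most Csta1 counts were also the highest of their group for some transcripts of other cells. Keratin 14 (Krt14), a basal epithelial keratin, was at 8.76, 85.6 and 31.2 CPM in wild type against 14.8, 64.0 and 23.6 in the knockout. The summed level of 13 corneal epithelium markers, 12 of them with counts and Dsg1a at 0 in all libraries, was 19.7, 144 and 96.2 CPM in wild type, and 26.6, 118 and 35.4 CPM without Il1a. Not all of these markers followed that order: Krt15 (31.6 CPM), Aldh3a1 (8.17 CPM) and Pax6 (0.84 CPM) were highest in wild type replicate 3, where Csta1 had 1 count. Ppbp, a platelet chemokine, had its highest values in replicate 2 of each genotype, 31.3 CPM in wild type and 38.7 in the knockout. Of the other platelet genes, Pf4 was at 3.03, 2.90 and 1.96 CPM in wild type against 4.24, 12.1 and 9.96 in the knockout. It was thus highest in replicate 2 of the knockout only, and it is also among the monocyte and macrophage markers below. Itga2b was at 0.56 and 0.16 CPM in wild type replicates 1 and 2, and at 0.062 CPM in knockout replicate 2, its lowest value. These genes were picked out after their values were seen. The part of epithelial or platelet RNA in the Csta1 counts was not tested.

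**Figure D2:**
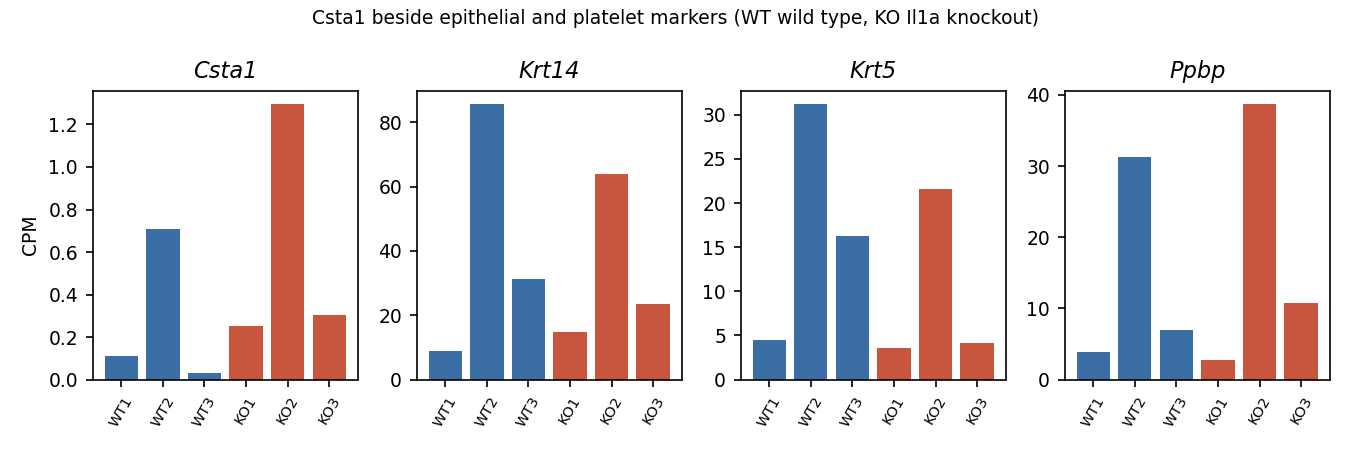
CPM of Csta1, of the epithelial keratins Krt14 and Krt5 and of the platelet gene Ppbp in each library (blue wild type, red Il1a knockout), with an axis from 0 for each gene. Replicate 2 of both genotypes is the highest library of its group in all 4 panels.

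Of the 8 genes 7 entered the test and none was called at an adjusted p under 0.05, beside 12 of the 11924 genes tested (0.101%). None had an unadjusted p under 0.05, against 5.99% of all tested genes, and in none did the wild type and knockout values separate, against 11.6%. Of the 7, 3 had a log2 fold change above 0, beside 50.7% of all tested genes, and their median was -0.026, beside 0.0045. The 95% intervals of the 7 reached 0.35 to each side at the median. The narrowest was that of Cstb (-0.09 to 0.38) and the widest that of Stfa3 (-1.09 to 0.23). These intervals are not adjusted for the number of genes tested, so 0.35 is not a limit of detection. With 3 libraries a group, differences larger than that could also go uncalled. Without knockout replicate 2 none of the 7 was called either, beside 9 genes in all. Absence of a call does not show that the genotypes were alike. In bulk RNA of sorted cells, fewer cells of a type and less RNA per cell cannot be told apart.

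**Figure D3:**
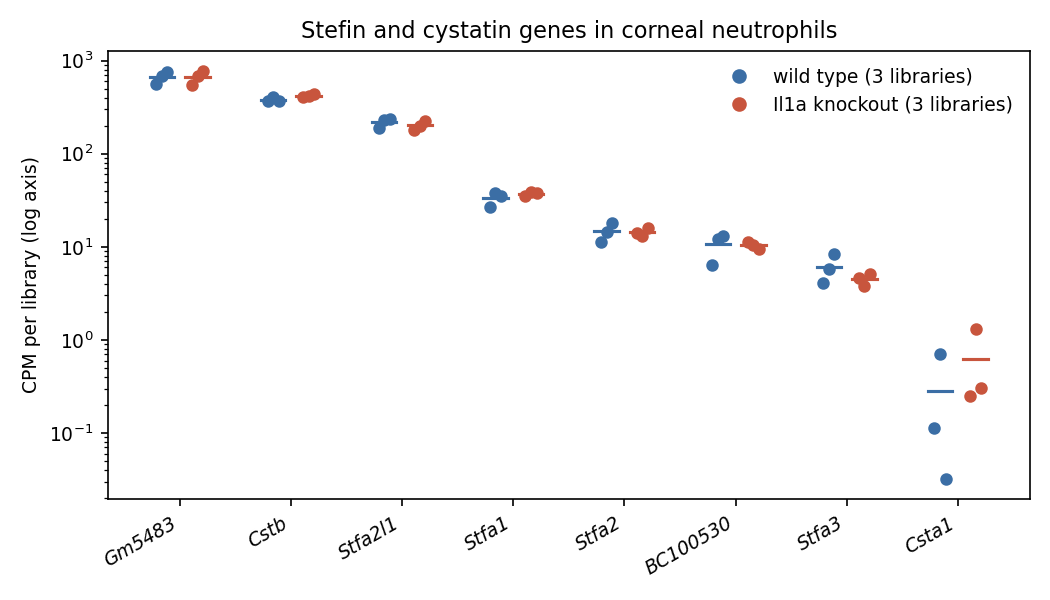
CPM per library on a log axis for the 8 genes, ordered by mean level, with a bar at each group mean (blue wild type, red Il1a knockout, 3 libraries each). The groups overlap for every gene, and levels run from 668 CPM for Gm5483 to 0.45 CPM for Csta1.

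Levels can be compared between genes only per transcript length. Per kb of the coding transcript, Gm5483 was highest at 1614 ± 231 CPM per kb (SD, 6 libraries of both genotypes), followed by Cstb at 662 ± 49.0, Stfa2l1 at 503 ± 58.2, Stfa1 at 68.8 ± 8.40 and Stfa2 at 30.7 ± 4.998. BC100530 at 16.9 ± 3.85 and Stfa3 at 12.8 ± 3.98 overlapped in range, and Csta1 was lowest at 0.16 CPM per kb. The BC100530 value rests on the unstranded column, which was 52.4% of its strand sum, so its place in this order may be too low. Gm5483 also has a longer model in the annotation. With all its annotated exons (1862 bases against 414) its level was 359 CPM per kb, below Cstb and Stfa2l1, so the order of the top 3 depends on the length used.

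**Figure D4:**
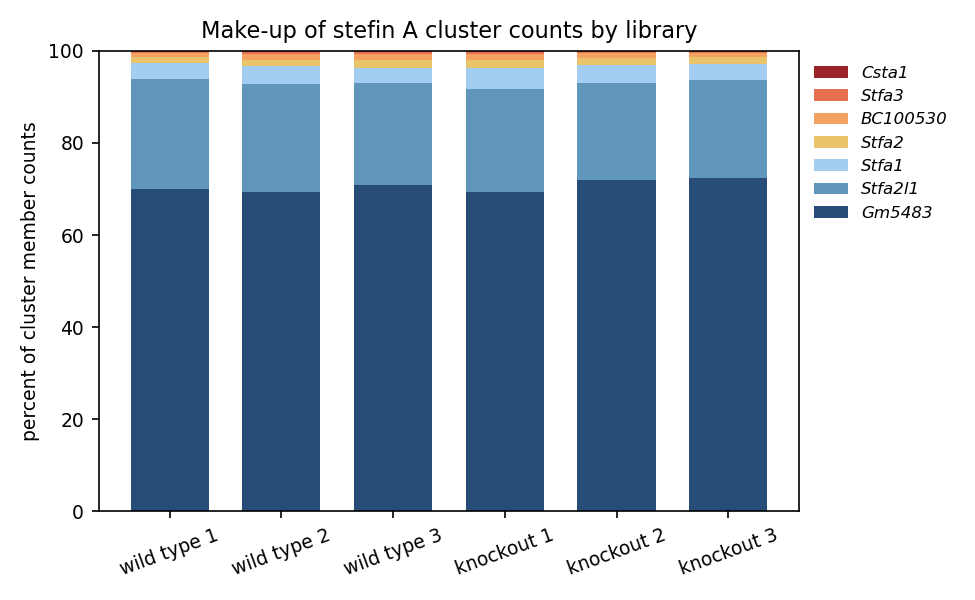
Percent of the counts of the 7 chromosome 16 genes that each contributed, as stacked bars for the 6 libraries. Gm5483 takes 69.2% to 72.3% and Stfa2l1 20.9% to 23.8% in every library.

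Of the 7 chromosome 16 genes, 6 share a pair of short motifs in front of their RefSeq start. RefSeq promoter entries (GRCm38.p6) were found for 7 of the 8 genes. The motifs GAGGAGGAG and TTTAAA were chosen after the sequences were seen and searched on both strands. The latter reads the same on both. The 75 bases before the RefSeq start are printed for the 3 genes whose RefSeq start is also that of GENCODE M21, in the direction of the gene, with the motifs in capitals. The windows are chr16:36184137-36184211 (plus strand) for Gm5483, chr16:36156736-36156810 (plus strand) for Stfa2l1 and chr16:36455393-36455467 (minus strand) for Stfa3.
Gm5483: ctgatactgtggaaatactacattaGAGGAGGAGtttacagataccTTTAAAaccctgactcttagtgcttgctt
Stfa2l1: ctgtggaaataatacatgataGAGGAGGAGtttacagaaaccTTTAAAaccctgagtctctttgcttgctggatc
Stfa3: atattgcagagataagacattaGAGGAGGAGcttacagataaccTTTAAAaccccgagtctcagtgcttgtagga

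Counted back from -1, the last base before the start, TTTAAA began at base -29 in Gm5483, -33 in Stfa2l1 and -31 in Stfa3, and GAGGAGGAG at -50, -54 and -53. Stfa1, Stfa2 and BC100530 held the same pair before their RefSeq start, whereas Csta1 had no GAGGAGGAG in its 250 bases. In GENCODE M21 those 3 genes start 197, 94 and 178 bases further upstream, so by that annotation the pair lies inside the gene. In BC100530 the motifs began at -9 (TTTAAA) and -30, closer to the RefSeq start than in the others. Of 32851 RefSeq promoters, 12.1% held TTTAAA and 2.75% GAGGAGGAG within 250 bases on either strand, and 0.201% held both. Within the last 75 bases and on the gene's strand, 11 promoter entries (0.0335%) held both, and 6 of them belonged to these genes. A gene outside the members was entered more than once. Because the motifs were read from these promoters, that number is no test of rarity. The 250-base promoters of the 6 genes were 64.1% to 89.4% identical to each other. Gm5483, with a mean of 668 CPM, and Stfa3, with 5.27 CPM, both carry the pair. A match describes the letters only.

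No cysteine protease of the lysosome was called, beside 0.101% of all tested genes. A list of 11 held cysteine cathepsins, the class that stefins inhibit, and legumain, which is of another family and is not counted here as a stefin target. Of these, 9 were tested and 7 had a log2 fold change above 0 (50.7% of all tested genes). The median was 0.08, beside 0.0045 over all tested genes. In 4 of the 9 the groups did not overlap (11.6% of all tested genes), and 2 had an unadjusted p under 0.05 (5.99%). Cathepsin B (Ctsb), the most abundant, was at 2071 ± 180 CPM in wild type and 2189 ± 195 in the knockout. Cathepsin Z (Ctsz) was at 774 ± 29.5 and 780 ± 49.1 CPM. Ctsc, whose product activates the serine proteases of neutrophil granules, was at 109 ± 32.6 and 110 ± 10.8. Cathepsin L (Ctsl) had 113, 114 and 102 CPM in wild type against 100, 90.9 and 89.1 in the knockout. The groups did not overlap, but the log2 fold change of -0.23 (SE 0.12, edgeR adjusted p = 0.87) did not pass the test.

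Legumain and 2 more proteases, chosen after their values were seen, had groups that did not overlap, all higher in the knockout. The asparaginyl endopeptidase legumain (Lgmn) had 10.3, 11.0 and 9.62 CPM in wild type against 15.6, 19.5 and 17.3 in the knockout, a log2 fold change of 0.76 (SE 0.17). It missed the threshold in edgeR (adjusted p = 0.26) and passed it in DESeq2 (adjusted p = 0.024). Cathepsin S (Ctss) had 28.0, 36.4 and 20.5 CPM in wild type against 39.4, 44.6 and 40.1 in the knockout (log2 fold change 0.55, SE 0.20, edgeR adjusted p = 0.74). Cathepsin H (Ctsh), at 39.9 ± 1.28 and 47.7 ± 2.42 CPM, had a log2 fold change of 0.26 (SE 0.12, edgeR adjusted p = 0.85).

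The summed level of monocyte and macrophage markers also separated the genotypes. For 14 such markers it was 588 to 636 CPM in wild type libraries and 711 to 736 CPM without Il1a. Cd68, with means of 308 and 348 CPM and overlapping groups, and Csf1r, with 178 and 206 CPM, made up most of that sum. Of the 13 tested, 12 had a log2 fold change above 0 (50.7% of all tested genes), and none was called (0.101%). Of the 13, 8 had an unadjusted p under 0.05 (5.99%), and in 7 the groups did not overlap (11.6%). Ly6c2, a marker of inflammatory monocytes, went the other way, at 32.6 ± 0.87 CPM in wild type and 26.5 ± 4.20 in the knockout, and its groups did not overlap. The complement gene C1qb, a macrophage marker picked out with its values in view, was at 0.97, 1.26 and 0.74 CPM in wild type against 2.11, 8.29 and 4.02 in the knockout, and no marker was at 0 in all libraries. Their part in the values of Lgmn, Ctss and Ctsh was not tested.

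**Figure D5:**
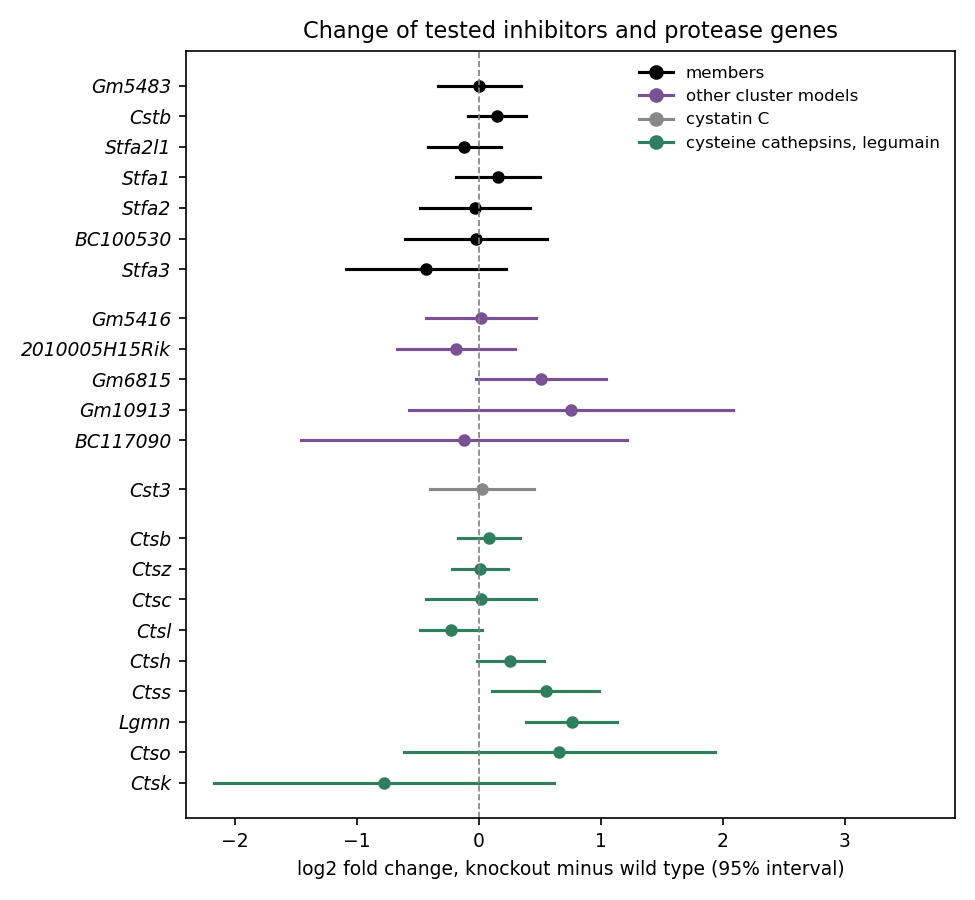
Log2 fold change, knockout minus wild type, with its 95% interval from edgeR, for the 7 tested members, the 5 other tested models of the cluster, cystatin C (Cst3) and 9 cysteine proteases. All member intervals span 0; those of Lgmn and Ctss lie above 0, but neither passed the adjusted threshold.

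No gene was called among the other cystatins, the cathepsins outside the cysteine class or the cornified envelope genes, beside 0.101% of all tested genes. Of 17 other cystatin genes, 13 had no count in any library and only Cst3, the secreted cystatin C, was tested, at 95.5 ± 20.4 CPM in wild type and 97.4 ± 22.1 in the knockout. Of 4 aspartic and serine cathepsins, 3 were tested and none was called. Cathepsin D (Ctsd) was at 734 ± 48.0 and 757 ± 107 CPM, cathepsin A (Ctsa) at 67.2 ± 17.7 and 85.9 ± 3.74, and Ctse at 5.44 ± 1.11 and 5.07 ± 2.06. Stefin A is also cross-linked into the cornified envelope of skin, so its partners there were examined. Of 14, 6 were tested, none was called, and 1 had a log2 fold change above 0 (50.7% of all tested genes). The transglutaminase Tgm2 was at 1501 ± 94.3 and 1499 ± 189 CPM, and Tgm1 at 92.6 ± 17.4 and 77.5 ± 3.06. Evpl and Sprr1a, for envoplakin and a small proline-rich envelope protein, were at 3.14 and 2.00 CPM in wild type and at 1.49 and 2.46 in the knockout.

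No gene of neutrophil maturation was called either, beside 0.101% of all tested genes. Of 12 genes of immature neutrophils 7 were tested and 2 had a log2 fold change above 0, with a median of -0.27. Of 15 genes of mature and blood neutrophils all were tested and 3 were above 0, with a median of -0.09. Over all tested genes 50.7% were above 0 and the median was 0.0045. An unadjusted p under 0.05 in edgeR was found for 2 of the 7 and 1 of the 15, beside 5.99% of all tested genes. Lcn2, the iron-withholding lipocalin, was at 9111 ± 256 CPM in wild type and 8849 ± 654 in the knockout. Chil3, a chitinase-like protein, was at 80.9, 100 and 97.3 CPM in wild type against 83.1, 35.1 and 27.6 in the knockout (edgeR adjusted p = 0.79), so that knockout replicate 1 lay with the wild type.

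Genes that followed Gm5483 most closely across the 6 libraries were ranked by the mean absolute difference of log2 CPM after each gene was centred on its mean, among 5662 tested genes of at least 5 CPM. Among the closest were Mrgpra2a (0.028), Hgsnat (0.038), Pias4 (0.038) and Mrgpra2b (0.048). Mrgpra2a and Mrgpra2b encode Mas-related G protein-coupled receptors, and Hgsnat a lysosomal enzyme of heparan sulfate breakdown. Mrgpra2a had 54.8, 71.4 and 79.1 CPM in wild type against 56.6, 69.6 and 81.9 in the knockout, so that replicate 1 was the lowest library of each group, as it was for Gm5483. Of the other members, Stfa2l1 ranked 85th (0.082) and Stfa2 409th (0.118), while Cstb, Stfa1, Stfa3 and BC100530 ranked from 842nd to 3263rd. The likeness is a description over 6 libraries.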

How the data were processed

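Per the labels' protocols, RNA of sorted neutrophils was purified with the RNeasy Micro kit and libraries were made with SMART-Seq v4, a kit without strand information. STAR 2.7.8a, Trimmomatic 0.39 and FastQC 0.11.9 were used, and GRCm38 (mm10) was the build, per the submitters' processing notes. Which annotation release was used is not given in the sources used here. For each library the authors deposited raw gene counts, in an unstranded column (used here) and 2 strand columns. Symbols and positions came from GENCODE M21, which held 54809 of the 54838 genes.

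The counts passed edgeR's expression filter by group and TMM scaling, and the robust quasi-likelihood test of edgeR 4.0.16 (with limma 3.58.1, in R 4.3.3) compared knockout with wild type, with Benjamini-Hochberg adjustment over the 11924 genes kept (99.9% of counts) and a threshold of 0.05. An exact test of 3 against 3 single values cannot give a two-sided p below 0.1, so none was used. On simulated counts of 11430 genes of this comparison, 9, 39, 50 and 50 of 50 genes changed 1.5-, 2-, 4- and 8-fold were called. Of the unchanged genes 6 were called. The changed genes were drawn from those with a mean of at least 5 CPM, so these rates do not cover genes as low as Csta1. Coding sequences were aligned with mafft 7.526, and promoters are from RefSeq. Named genes were the 8 members, every other model of the cluster with counts, up to 4 of the most abundant genes of each related list and the 5 patterns most like that of Gm5483 (1 of these is not reported here), and others are said to be chosen after their values were seen. The members and lists were chosen with earlier results of these data known.

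Alternatives for scaling were library size alone, upper quartile and DESeq2 size factors, and for the filter none or 5 CPM in at least 3 libraries. Others were a replicate block, each library left out, the sum of the strand columns, limma-voom and DESeq2 1.42.0; those for genes outside the members were added after the data were seen.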

Additional observations from a re-analysis of the deposited data

How the results depend on the processing

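No member was called under any of the 15 alternatives; the lowest member adjusted p was 0.738, for Cstb without knockout replicate 1. The number of genes called was 12 in the reported fit, 185 without a filter, 21 with the 5 CPM filter, 20 with the replicate block, 69 with DESeq2, and 7 to 24 with a library left out (7 without wild type replicate 1 or 2, 24 without knockout replicate 1). The cause was not tested. Deviations from the group means correlated at 0.14, 0.057 and 0.0034 between libraries of the same replicate number. Between libraries of different numbers the correlations ran from -0.188 to 0.145. The labels do not say whether equal numbers mark paired libraries, and these values cannot decide it.

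Signs near 0 changed. The log2 fold change of BC100530 was 0.050 with library size alone, 0.031 with the replicate block, 0.042 with the strand sum, 0.029 with limma-voom and -0.30 to 0.16 with a library left out; its share was 2.10% with the strand sum. That of Gm5483 was -0.0020 with DESeq2 size factors and with DESeq2, -0.0075 without a filter, -0.0021 with limma-voom and -0.13 to 0.12 with a library left out. That of Stfa2 was 0.036 with library size alone and -0.20 to 0.14 with a library left out. With a library left out, Gm5416 ranged from -0.16 to 0.24, Cst3 from -0.18 to 0.19, 2010005H15Rik from -0.41 to 0.021 and Ctsb from -0.0022 to 0.15. Stfa1, Stfa2l1, Stfa3 and Cstb kept their direction. The log2 ratio of the cluster total ranged from -0.15 to 0.075 with a library left out. With 1 to 42 counts per library, Csta1 did not pass the filter of the reported test.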
